A study of Mus musculus with 8 samples.

Results

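S100a8, S100a9, Lcn2, Ngp, Camp and Retnlg, 6 of the 33,027 genes in the files, were chosen by name as the alarmin and granule genes of neutrophils. Each was read by its symbol in single-cell RNA of lungs from 8 mice. All animals were Sftpc-CreERT2-mTmG mice on C57Bl/6, given tamoxifen at 8 to 10 weeks of age, so that cells expressing Sftpc (chiefly alveolar type II cells) turned on a green reporter. Of these, 4 breathed cigarette smoke (CS) for 6 hours a day, 5 days a week, over 10 months (mice C2, C5, D2 and D5), and 4 breathed room air (RA) over the same time (mice F1, F3, M1 and M3). The lungs had been perfused, red cells lysed, and cells sorted on CD45 beads and remixed toward a set share of CD45-positive cells, so the share of leukocytes in a library is not that of the lung. Cells of CD45-positive types made up 12.7% (F1) to 37.3% (M3) of the cells kept. Each of 4 sequencing lanes held 1 CS and 1 RA mouse.

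A value below is a number of transcripts (unique molecular identifiers, UMIs) per 10,000 of a cell's transcripts, averaged over the cells of 1 type in 1 mouse, so n counts mice. Of 41,106 cells, 1025 labelled as multiplets and 7 labelled as cell cycle were left out. The other 40,074 cells fell into 32 cell types, among them 1411 cells labelled NG, the study's neutrophils, 627 from CS and 784 from RA mice. Libraries held 31,882,952 to 55,485,617 UMIs each, and 197 of 40,909 cell barcodes occurred in more than 1 library. RA mouse F1 stood apart from the other 7, with 373 NG cells against 112 to 193, and the main differences that rest on it are also given without it. By label, mice C2, C5, M1 and M3 were male and D2, D5, F1 and F3 female. In all 4 CS libraries, the sex-linked transcripts Xist and Ddx3y went against the labelled sex, and in 0 of 4 RA libraries. Xist was at 7.18 and 7.44 in C2 and C5, and Ddx3y at 0.692 and 0.827 in D2 and D5. By these transcripts as by the labels, both sexes were present in each group.

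Neutrophils are short-lived leukocytes that leave the bone marrow filled with granules. S100a8 and S100a9 form calprotectin, a calcium- and zinc-binding complex that fills the cytosol and acts as an alarmin once released. Lcn2 (lipocalin 2) withholds iron from bacteria by binding siderophores and is also made by stressed epithelium. Ngp (neutrophilic granule protein) and Camp (the cathelicidin precursor) are packed into specific granules, and their transcripts are known from immature marrow neutrophils and fade as the cells mature. Retnlg is a resistin-like secreted protein of myeloid cells.

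The genes sit in 4 places of the mouse genome (GRCm38, gene models of GENCODE M21). S100a8 (chr3:90668978-90670035, plus strand, 3 exons) and S100a9 (chr3:90692632-90695721, minus strand, 3 exons) are neighbours 22.6 kb apart. Camp (chr9:109847379-109849617, minus strand, 4 exons) and Ngp (chr9:110419747-110423012, plus strand, 4 exons) share a chromosome at 570.1 kb. Lcn2 (chr2:32384633-32388252, minus strand, 7 exons in its longest model) and Retnlg (chr16:48872621-48874496, plus strand, 4 exons) stand alone, and none of the 6 overlaps another annotated gene.

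To show what lies before genes that share NG cells as their main source and before Lcn2, which does not, the bases just upstream of the exon at the RefSeq start are given, 5′ to 3′ on the gene's strand, from RefSeq promoter sequences of GRCm38.p6. Capitals mark matches to a C/EBP-type motif (TTNNGNAA, or TTNCNNAA on the other strand) or a short NF-kB-type motif (3 G, 5 free bases and 2 C, or on the other strand 2 G, 5 free bases and 3 C). No matches to both motifs overlap here. For Lcn2 only 53 bases are free of annotated exons. They lie within the annotated gene, between exons of a longer model that starts further upstream. For the others the 80 bases before the gene are shown.
S100a8, chr3:90668898-90668977, plus strand: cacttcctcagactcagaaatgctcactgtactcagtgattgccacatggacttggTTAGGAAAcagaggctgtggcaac
S100a9, chr3:90695722-90695801, minus strand: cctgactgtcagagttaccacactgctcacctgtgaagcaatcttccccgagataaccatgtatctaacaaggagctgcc
Lcn2, chr2:32387798-32387850, minus strand: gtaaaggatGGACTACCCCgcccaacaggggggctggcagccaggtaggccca
Ngp, chr9:110419667-110419746, plus strand: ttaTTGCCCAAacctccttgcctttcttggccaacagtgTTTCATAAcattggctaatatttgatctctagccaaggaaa
Camp, chr9:109849618-109849697, minus strand: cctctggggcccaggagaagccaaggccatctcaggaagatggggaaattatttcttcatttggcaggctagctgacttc
Retnlg, chr16:48872541-48872620, plus strand: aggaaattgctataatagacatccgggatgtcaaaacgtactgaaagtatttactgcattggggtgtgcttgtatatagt

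The C/EBP-type motif occurred in the windows of S100a8 (starting 24 bases before the exon) and Ngp (77 and 41 bases before it), and in 11.4% of 32,851 RefSeq promoters over the 80 bases before their start. The NF-kB-type motif occurred before Lcn2 (44 bases before the exon), and in 23.0% of all promoters. A match is a description of letters and not a binding site.

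NG cells were checked against 12 neutrophil markers. All 12 were found, and 11 of them were higher in NG cells than in any other type, such as the G-CSF receptor Csf3r at 17.6 ± 2.05 (SD, n = 8 mice) and the chemokine receptor Cxcr2 at 5.73 ± 0.836. The exception, Hdc (histidine decarboxylase), reached 36.3 in NG cells and 87.5 in cells labelled Mast. NG cells were shallow, with a median of 2295 UMIs per cell. By mouse, this median ran from 1734 to 2528 in CS and from 2175 to 2986 in RA mice. Their summed level of 2 club cell markers ran from 2.13 to 40.8 in CS and from 3.75 to 44.2 in RA mice, and the part of such airway RNA in the results was not tested.

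NG cells held nearly all transcripts of the alarmins, and a minor part of those of Lcn2. Of the S100a8 transcripts in a mouse's cells, NG cells held 96.7% ± 2.55 (SD, n = 8 mice), and of S100a9 97.0% ± 2.40. For Retnlg the share was 93.1% ± 5.77. For Ngp it was 83.1% ± 18.0 and for Camp 60.0% ± 39.3, both genes with few transcripts in all. For Lcn2, NG cells held 11.7% ± 10.6, and alveolar type II (AT2) cells 58.2% ± 14.4. Goblet cells held 10.9% ± 5.71, club cells 10.0% ± 5.56 and lymphatic endothelial cells 3.53% ± 1.78 of Lcn2 transcripts. These shares follow the number of cells of each type as well as the level per cell, and the cell numbers were set in part by the sort.

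**Figure D1:**
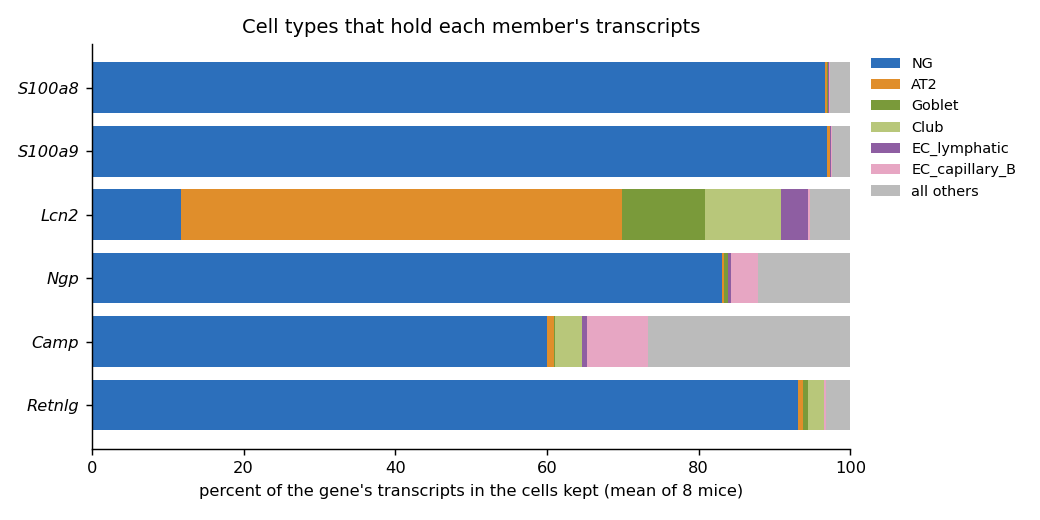
Stacked bars give, for each of the 6 genes, the percent of its transcripts in the cells kept that each cell type held (mean of 8 mice). NG cells hold 96.7% of S100a8 and 97.0% of S100a9, and AT2 cells hold 58.2% of Lcn2.

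S100a9 was the more abundant alarmin transcript in NG cells, at 455 ± 54.3 per 10,000 (SD, n = 8 mice), with S100a8 at 288 ± 36.9. A transcript of S100a8 was found in 98.6% of the 1411 NG cells (exact binomial 95% interval 97.8 to 99.1%, which covers counting error only) and of S100a9 in 99.4% (98.9 to 99.8%). Retnlg followed at 74.2 ± 37.5, found in 88.9% of NG cells, and Lcn2 at 15.9 ± 16.2, found in 63.4%. Ngp stood at 3.03 ± 3.80 and Camp at 2.43 ± 3.34, found in 4.96% and 2.27% of NG cells. The 6 genes together made up 7.30% to 10.3% of all NG transcripts in CS and 8.36% to 10.8% in RA mice.

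Smoke was compared with room air in NG cells over 4 mice against 4 by exact two-sided permutation tests on log2 of the level plus 1, which allow 70 assignments and no p below 0.0286. None of the 6 genes passed the threshold of 0.05.

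S100a8 in NG cells stood at 366, 278, 266 and 287 in CS mice C2, C5, D2 and D5, and at 256, 317, 274 and 260 in RA mice F1, F3, M1 and M3. The groups overlapped, with the highest value in CS mouse C2, and the log2 difference (CS minus RA) was 0.11 (p = 0.457, exact permutation test). Without C2 it was 0.0076 (p = 0.943, exact permutation test). S100a9 stood at 539, 475, 414 and 381 in the CS mice and at 484, 507, 431 and 411 in the RA mice. Here too the groups overlapped (log2 difference -0.03, p = 0.8, exact permutation test), and the difference was smaller than the spread within either group.

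Retnlg varied more between mice than the alarmins. Its level in NG cells was 101, 70.3, 63.8 and 54.7 in the CS mice and 151, 79.0, 36.6 and 37.3 in the RA mice. Both mice of lane 1, C2 and F1, had the highest value of their group, and the groups overlapped (log2 difference 0.15, p = 0.8, exact permutation test). Without mouse F1 the RA mean fell from 75.9 to 51.0, and the log2 difference was 0.56.

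Lcn2 in NG cells was set by mouse F1. Its level was 12.6, 8.64, 8.57 and 7.50 in the CS mice, and 55.5, 15.7, 9.20 and 9.52 in the RA mice. Within each of the 4 lanes the CS mouse had the lower value, but the groups overlapped, since C2 lay above M1 and M3. The log2 difference was -0.81 (p = 0.171, exact permutation test) with all mice and -0.26 without F1. In F1 the high level was spread over its cells: 95.7% of its 373 NG cells held an Lcn2 transcript, against 41.2% to 64.7% in the other 7 mice. In M3, by contrast, 1 cell held 66.8% of the NG Lcn2 transcripts. From summed counts, which weight deep cells more, the groups did not overlap (log2 difference -1.21, p = 0.0286, exact permutation test), the smallest p that this test allows. Single cells weighed on these sums. Beside the cell in M3, 1 cell held 37.7% of the NG Lcn2 transcripts in M1 and 26.1% in F3. In F1 the top cell held 2.74%, and in the CS mice 6.18% (D2) to 24.2% (C5). Whether the groups stay apart without such cells was not tested. Without F1 this difference was -0.84 (p = 0.0571, exact permutation test).

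The granule genes Ngp and Camp ranged widely in NG cells, with the highest values in RA mouse F3. Ngp was at 0.477, 2.05, 0.162 and 0.411 in the CS mice, and at 0.859, 11.1, 3.19 and 5.99 in the RA mice. Camp was listed at 0 in C2 while C5, D2 and D5 stood at 2.31, 0.0662 and 0.177, and the RA mice at 0.200, 9.63, 2.40 and 4.63. For both genes the CS mouse was lower in 4 of 4 lanes, while CS mouse C5 lay above RA mouse F1. The log2 difference was -1.62 for Ngp and -1.47 for Camp, each with p = 0.0571 (exact permutation test). Without F1, Ngp differed by -2.10 (p = 0.0286, exact permutation test).

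**Figure D2:**
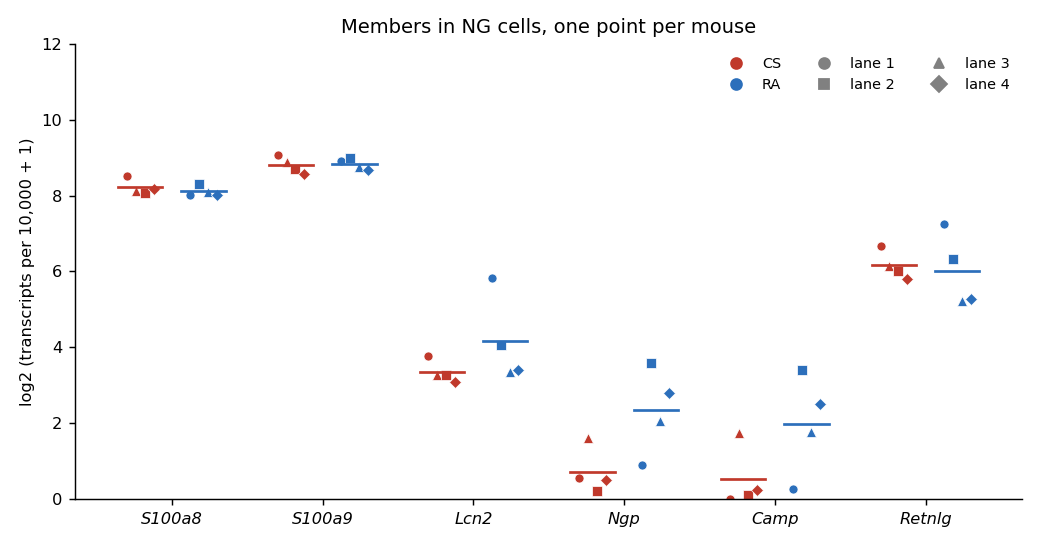
Each point is 1 mouse: log2 of transcripts per 10,000 plus 1 in NG cells, in red for smoke (CS) and blue for room air (RA), with the sequencing lane as the symbol and a line at the mean of 4 mice. S100a8 and S100a9 differ little between mice, whereas Lcn2 has 1 high RA mouse (55.5 transcripts per 10,000, mouse F1) and Ngp and Camp spread from near 0 to 11.1 and 9.63.

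The Ngp and Camp levels rested on a handful of cells. Only 9 of the 1411 NG cells (0.638%) held 10 or more Ngp transcripts, a limit set after seeing the values (the lowest of them held 17.0 and the highest of the other cells 6.996). They held 96.6% of all Ngp and 99.1% of all Camp transcripts of NG cells. C5, D5, F1, M1 and M3 had 1 such cell each, F3 had 4, and C2 and D2 had 0, which makes 2 in CS and 7 in RA mice.

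These 9 cells carried other transcripts of specific granules as well, with a higher mean than the other NG cells for all 8 listed genes beside Ngp and Camp. Ltf (lactotransferrin, a specific granule protein) averaged 97.3 per 10,000 in them and 0.125 in the other NG cells. Lcn2 averaged 195 against 21.2 and Cd177, a neutrophil surface protein, 7.44 against 0.334. S100a8 reached 1162 against 280.2 and S100a9 1587 against 454. Of 6 gelatinase granule genes 2 were higher, with Mmp8 at 16.6 against 5.82, and 4 lower, with Mmp9 at 8.50 against 10.8. Of 19 genes of mature neutrophils 16 had a lower mean in the 9 cells, with Cxcr2 at 2.29 against 5.86, Csf3r at 4.22 against 17.3 and the cytokine Il1b at 34.1 against 103. The other 3 were higher, namely Ly6g (6.89 against 0.912), Wfdc21 (51.3 against 7.86) and Ifitm6 (24.0 against 1.48). The cells were deep, with a median of 7346 UMIs against 2289 in the other NG cells, and the genes of azurophil granules Elane, Mpo and Ctsg were listed at 0 in all 9. Since the cells were picked by Ngp, these values are a description and were not tested.

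Across all cell types and genes, smoke was also tested by limma, on mouse means plus 1 in log2, in types with at least 20 cells per mouse in 3 or more mice of each group (5 cells for NG) and for genes found in at least 10% of cells of either group. Of 132 possible pairs of a member gene and one of 22 types, 17 passed this filter, in 9 types. None of the 17 passed an adjusted p of 0.05 (Benjamini-Hochberg over all genes of the type), 2 had an unadjusted p under 0.05, and 1 had groups that did not overlap. As background, 1.23% of all 172,262 pairs of a gene and a type tested passed, and 10.7% had groups that did not overlap. In NG cells, 0.0% of 2819 genes passed, with 378 at an unadjusted p under 0.05. The share was also 0.0% in AT2, lymphatic, peribronchial fibroblast and classical monocyte cells, 0.199% in club, 0.177% in goblet, 0.306% in mesothelial and 0.53% in alveolar macrophage cells. The limma values for NG cells were a log2 difference of 0.11 (SE 0.121, adjusted p = 0.762) for S100a8, -0.03 (SE 0.119, adjusted p = 0.947) for S100a9, -0.81 (SE 0.408, adjusted p = 0.410) for Lcn2 and 0.15 (SE 0.355, adjusted p = 0.908) for Retnlg. Ngp and Camp were found in too few NG cells for this test.

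The other genes of the neutrophil programme were read in NG cells from lists. None of the members of any list passed an adjusted p of 0.05 (limma) in either direction in NG cells. Of 7 azurophil granule genes, 0 were found in enough cells to be tested, and Elane and Ctsg were listed at 0 in NG cells of every mouse. Of 10 specific granule genes 6 were tested, with a median log2 difference of -0.39, against 0.02 over all genes tested in NG cells. Their highest members beside Lcn2 were Hp (haptoglobin) at 17.3, Lyz2 (lysozyme) at 14.2 and Chil3 (a chitinase-like protein) at 11.6. Each was higher in another type, Hp at 38.6 in club, Lyz2 at 306 in AT2 and Chil3 at 136 in alveolar macrophage cells. Of the 10 listed genes, 3 were highest in NG cells. The part of RNA from other types in these NG values was not tested. Chil3 in NG cells was at 89.0 in F1 and at 0 to 1.81 in the other 7 mice.

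Of 6 gelatinase granule genes 4 were tested (median log2 difference 0.14), led by the gelatinase Mmp9 at 10.97 ± 1.73, the protease Adam8 at 4.76 ± 0.770 and the collagenase Mmp8 at 4.16 ± 4.36 (SD, n = 8 mice). All 19 genes of mature neutrophils were tested (median log2 difference -0.01), led by Il1b at 109, G0s2 at 90.4 and Hdc at 36.3. In 1 of these 19, Csf3r, all CS mice lay above all RA mice, and in 2, the decoy receptor Il1r2 and the lectin Clec4e, all lay below. In NG cells, 5.25% of all genes had groups that did not overlap with CS higher and 2.55% with CS lower. Of 11 regulators linked to Lcn2 induction 7 were tested (median 0.07), led by the transcription factor Cebpb at 56.3, Nfkbiz at 18.4 and Spi1 at 12.9.

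Among 16 genes of the S100 family, 5 were tested in NG cells (median log2 difference 0.09). Beside the alarmins the highest were S100a6 at 44.7 and S100a11 at 29.9, followed at a distance by S100a13 at 0.629. S100a6 was at 61.9, 54.7, 50.9 and 48.7 in the CS mice and at 40.4, 35.0, 29.7 and 36.4 in the RA mice. The groups did not overlap (log2 difference 0.60, SE 0.139), but the adjusted p of 0.158 (limma) missed the threshold. Of 4 resistin family genes 2 were tested (median 0.13), Retnlg and Retn, the latter at 0.542. Genes listed as receptors for alarmins and lipocalin, with the formyl peptide receptor Fpr1 among them, were low in NG cells. Fpr1 at 2.86 and Tlr4 at 1.38 were still higher than in any other type (next alveolar macrophages at 1.48 and 1.08). Bsg at 0.739 was lower than in any other type. Of the 7 genes 3 were tested (median -0.09). Of 12 genes of neutrophil recruitment 7 were tested (median -0.53), led by Cxcl2 at 126, Alox5ap at 16.1 and Ccl3 at 10.1. Ccl3 was at 1.49, 5.44, 10.5 and 10.9 in the CS mice and at 16.2, 12.1, 12.4 and 11.5 in the RA mice. These groups did not overlap either (log2 difference -1.02, SE 0.372), and the adjusted p was 0.275 (limma).

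Outside NG cells, 21 of 581 pairs of a listed gene and a type passed an adjusted p of 0.05 (3.61%, limma, against 1.23% of all pairs), 7 higher and 14 lower in CS. These are named after their values were seen. In alveolar macrophages the neutrophil chemoattractants Cxcl2 and Cxcl1 fell. Cxcl2 had a mean of 16.8 in CS against 48.6 in RA mice (log2 difference -1.48, adjusted p = 0.000147, limma) and Cxcl1 0.905 against 3.09 (-1.07, adjusted p = 0.0473, limma). Among regulators linked to Lcn2, Nfkbiz fell in macrophages (log2 difference -1.06), Cebpb in AT1 (-0.45), ciliated (-0.43) and EC_capillary_B cells (-0.18), and Cebpd in EC_capillary_B cells (-0.88) and alveolar fibroblasts (-0.71), with adjusted p from 0.0203 to 0.0481 (limma). Il6ra fell in AT1 cells (-0.55, adjusted p = 0.00263, limma) and Il1r1 rose in EC_capillary_B cells (0.28, adjusted p = 0.0489, limma). Of the S100 family, S100a6 rose in ciliated cells (1.14, adjusted p = 0.0218, limma). S100a10 rose in ciliated cells and fell in 3 other types, arterial, EC_capillary_B and adventitial fibroblast cells. S100a13 fell in EC_capillary_B cells (-0.31, adjusted p = 0.0322, limma), as did the receptor gene Bsg (-0.29, adjusted p = 0.0286, limma). Also higher in ciliated cells were Adam8 (0.48, adjusted p = 0.00892), Tlr4 (0.054, adjusted p = 0.0194) and Cd36 (0.12, adjusted p = 0.0288, limma). Of these, Tlr4 was barely detected, with means of 0.0853 in CS and 0.0453 in RA mice, and Cd36 was low, at 0.220 and 0.119. Cebpb in EC_capillary_B cells was low too, at 0.228 and 0.391. The 1 added before log2 compresses differences at such levels. The remaining rise, of Retnla in goblet cells, is given below. The share of all genes that passed was 0.53% in macrophages, 2.38% in AT1, 4.63% in ciliated, 10.3% in EC_capillary_B and 1.37% in alveolar fibroblast cells. In arterial endothelial cells 53 of 7920 genes passed, and in adventitial fibroblasts 292 of 9406.

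NG cells made up 16.6%, 8.96%, 8.98% and 15.9% of cells of CD45-positive types in CS mice C2, C5, D2 and D5, and 46.3%, 15.9%, 12.2% and 11.8% in RA mice F1, F3, M1 and M3. The groups overlapped, and the difference of -8.90 percentage points had p = 0.457 (exact permutation test). Without F1 it was -0.652 points. As a share of NG cells and monocytes alone, NG cells made up 45.3% to 52.8% in CS and 55.4% to 81.1% in RA mice. With this denominator the groups did not overlap, and the difference of -13.4 points had p = 0.0286 (exact permutation test), the smallest value possible. Without F1, at 81.1% the highest of all mice, it was -7.26 points (p = 0.0571, exact permutation test). More NG cells and fewer monocytes cannot be told apart in such a share.

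Lcn2 was the only member with a cell type at or above its NG level. AT2 cells held 18.4 ± 7.62 per 10,000 (SD, n = 8 mice), NG cells 15.9 ± 16.2, lymphatic endothelial cells 11.02 ± 15.9, goblet cells 3.50 ± 1.64 and club cells 1.12 ± 0.487. AT2 cells lay above NG cells in 6 of 8 mice, a difference within the spread (p = 0.289, exact sign-flip test over mice). NG cells lay above lymphatic cells in 7 of 8 mice (p = 0.0156, exact sign-flip test), and lymphatic above goblet cells in 5 of 8 (p = 0.188). The means of NG and lymphatic cells rested largely on F1. Without it AT2 cells held 18.4 ± 8.22 (SD, n = 7 mice), NG cells 10.2 ± 2.88, lymphatic cells 5.47 ± 2.91, goblet cells 3.64 ± 1.72 and club cells 1.12 ± 0.526, in the same order. AT2 cells then lay above NG cells in 6 of 7 mice (p = 0.0313) and NG above lymphatic cells in 6 of 7 (p = 0.0313, exact sign-flip tests), so the first of these calls depended on F1. The 6 neuroendocrine (PNEC) values averaged 2.37, of which 12.4 came from F1, where 1 cell held 93.6% of the transcripts.

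Lcn2 was detected in 96.2% of the AT2 cells (at a median of 11,684 UMIs), 74.9% of goblet cells (35,093), 64.1% of lymphatic cells (5008) and 53.2% of club cells (32,786). In B cells, which are not known as a source of Lcn2, they were found in 1.59% (median depth 4055). After thinning every cell to 2000 UMIs, the shares were 82.9% in AT2, 45.5% in lymphatic, 32.1% in goblet, 13.7% in club and 0.533% in B cells. Thinning left out 43 AT2, 33 lymphatic, 17 goblet, 93 club and 270 B cells that were shallower, and 435 NG cells, whose own share was then 66.7%.

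In lymphatic endothelial cells, Lcn2 was lower in all 4 CS mice than in any RA mouse. The level was 2.03, 3.06, 6.68 and 2.64 in C2, C5, D2 and D5, and 49.9, 6.71, 7.32 and 9.82 in F1, F3, M1 and M3. The groups did not overlap, although D2 and F3 were nearly equal. In this cell type 2.13% of 8281 genes had groups that did not overlap with CS lower, and 0.0% passed an adjusted p of 0.05. The log2 difference was -1.67 (SE 0.410, adjusted p = 0.168, limma). Without F1 it was -1.04 (adjusted p = 0.0939, limma), so the RA mean without that mouse, 7.95, remained above the CS mean of 3.60.

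The difference was also seen in the typical lymphatic cell. The median over cells ran from 0.565 to 1.70 in the CS mice, and was 45.6 in F1 and 3.37 or more in the other RA mice. The share of lymphatic cells with a transcript ran from 51.8% to 62.3% in CS and from 67.6% to 100% in RA mice. There were 53 to 103 lymphatic cells per CS mouse and 24 to 74 per RA mouse. In F1 the lymphatic cells also had the highest mean S100a8 and S100a9, at 2.35 and 3.67, against at most 0.125 and 0.0953 in the other 7 mice. Of these transcripts in lymphatic cells, 1 cell held 91.4% and 94.8%. Without that cell the mean Lcn2 level over the 8 mice was 10.94, against 11.02 with it. Any further part of neutrophil transcripts in the Lcn2 values was not tested.

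In AT2 cells the means ran the other way, with overlap. Lcn2 was at 15.4, 19.1, 17.8 and 35.5 in the CS mice and at 17.8, 17.9, 13.9 and 9.33 in the RA mice. D5 was highest and M3 lowest. The median over cells was closer, at 14.9 in D5, from 12.5 to 14.9 over the CS mice and from 6.83 to 13.4 over the RA mice. The log2 difference of the means, 0.51 (SE 0.252), had an adjusted p of 0.708 (limma). Leaving out 1 mouse moved it between 0.26 and 0.65. Goblet cells gave a like value, 0.51 (SE 0.260, adjusted p = 0.425, limma), from 3.77, 6.05, 1.95 and 5.76 in CS and 2.58, 2.97, 1.63 and 3.34 in RA mice. In club cells the difference was -0.22 (SE 0.167, adjusted p = 0.670) and in mesothelium -0.27 (SE 0.219, adjusted p = 0.619, limma).

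Whether smoke moved Lcn2 differently in different cell types was tested within mice, a comparison chosen after the values were seen. The change in AT2 cells minus that in lymphatic cells was 2.18 on the log2 scale (p = 0.0571, exact permutation test, adjusted p = 0.0762 over 4 pairs of types). For AT2 minus NG it was 1.32 (p = 0.0571), for goblet minus lymphatic 2.18 (p = 0.0857) and for NG minus lymphatic 0.86 (p = 0.0571, exact permutation tests). None passed the threshold, and without F1 the p-values ran from 0.0857 to 0.143.

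**Figure D3:**
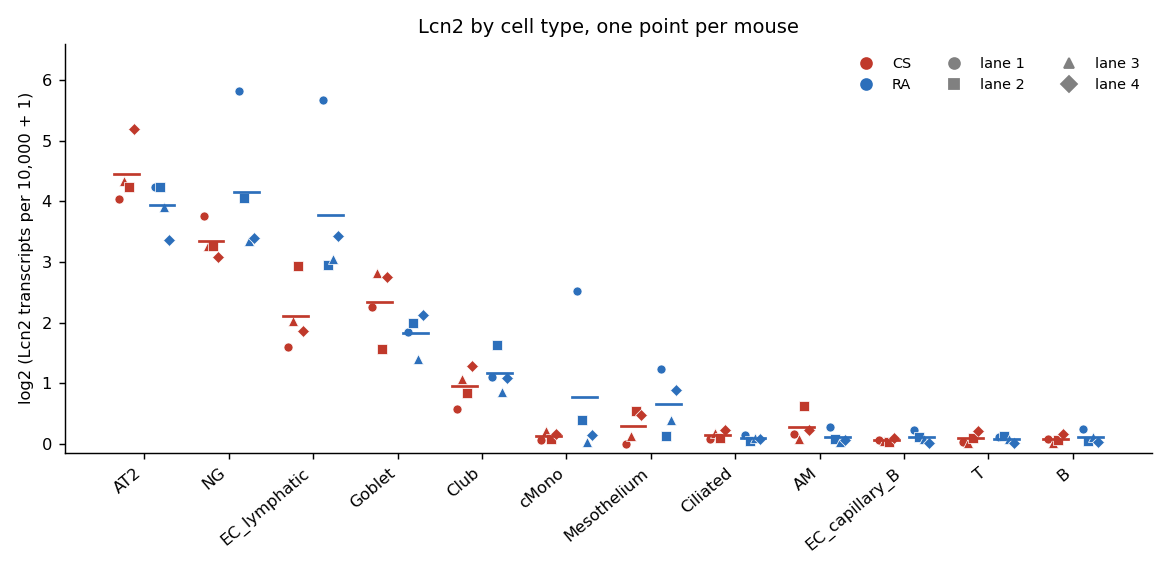
Each point is 1 mouse: log2 of Lcn2 transcripts per 10,000 plus 1 in 12 cell types, red for CS and blue for RA, with lanes as symbols and lines at the mean of each group. In lymphatic endothelial cells (EC_lymphatic) all CS points lie below all RA points, and mouse F1 (blue circle) is far above the rest in NG, lymphatic and classical monocytes (cMono) but not in AT2 cells.

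In classical monocytes, the levels of Lcn2 and S100a8 rested on F1. Lcn2 was at 4.74 in F1 and from 0.0235 to 0.313 in the other 7 mice, S100a8 at 3.70 against 0 to 0.407. The log2 difference was -0.65 (SE 0.410, adjusted p = 0.602) for Lcn2 and -0.63 (SE 0.364, adjusted p = 0.572, limma) for S100a8. Without F1, neither gene was found in enough of these cells to be tested. In F1, 65.9% of 85 classical monocytes held an Lcn2 transcript, and 1.85% to 10.5% in the other mice.

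Outside NG cells the alarmins were scarce, and most of what was found sat in few cells. Over 31 other cell types, the S100a8 level ranged from 0 to 2.62 with a median of 0.0655, and S100a9 from 0.00757 to 3.10 with a median of 0.0983. The next types after NG were the types labelled cDC1, DC_mature and M, with S100a8 at 2.62, 1.20 and 0.887, where 2, 1 and 1 cells held 100%, 99.7% and 99.1% of its transcripts. Of 38,663 cells outside NG, 32 carried 50 or more S100a8 and S100a9 transcripts per 10,000, a limit set after seeing the values and passed by 96.8% of NG cells. These 32 cells held 61.6% of the S100a8 and 63.9% of the S100a9 transcripts found outside NG.

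The 32 cells came from 13 cell types and were spread unevenly over mice, with 14 in F1, 5 each in F3 and M1, 4 in D5, 3 in C5, 1 in D2 and 0 in C2 and M3. Alveolar fibroblasts had 6 and endothelial cells labelled EC_capillary_B 4. Their median depth was 8150 UMIs against 5386 in the other cells outside NG. Among them 84.4% held Retnlg, 59.4% Csf3r and 56.2% Cxcr2, against 2.05%, 2.06% and 1.25% of the other cells outside NG. Cxcr2 was found in 66.9% of NG cells. Whether these cells were doublets with a neutrophil was not tested.

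Where a cell outside NG held an alarmin, it mostly held about 1 transcript. S100a8 was found in 3.47% and S100a9 in 5.20% of all cells outside NG, with a median count where found of 0.787 and 0.674 after the authors' correction for free RNA. The count was under 1.5 in 87.2% and 90.4% of these cells. After rounding and thinning to 2000 UMIs the shares were 1.19% and 1.47%, and small values lost in rounding are part of that drop. EC_capillary_B cells held S100a8 in 2.47% and S100a9 in 4.33% of 9988 cells, ciliated cells in 4.52% and 7.02%, and T cells in 2.15% and 4.52%. Whether such low shares are expression or free RNA left by the correction was not tested.

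Each member's ratio to S100a8 outside NG cells was compared with that in NG cells of the same mice. Free RNA had already been subtracted by the authors, and whether what remains of it keeps the NG ratio was not tested. This was possible in 9 cell types with at least 3 S100a8 transcripts in 6 or more mice, which gave 45 tests by exact sign flips over mice, adjusted together (Benjamini-Hochberg). The smallest possible p was 0.0312 with 6 mice, 0.0156 with 7 and 0.00781 with 8, so a ratio in 6 mice could hardly pass. In NG cells S100a9 stood at 1.56 times S100a8. It stood at 1.71 times in EC_capillary_B cells (log2 difference to NG 0.13, range over 8 mice -0.22 to 0.55) and at 1.60 times in ciliated cells (0.04, range -0.72 to 0.73), neither of which passed. In B cells it stood at 1.06 times, below NG in 7 of 7 mice, at an adjusted p of 0.0502 (exact sign-flip test). Of the 9 S100a9 ratios, 1 passed. Of all 45 ratios 9 passed, all at the smallest p that 8 mice allow. They include 2 ratios each of Ngp and Camp, where the added count given below weighs heavily. Leaving out 1 mouse raises the smallest p to 0.0156 or more, so ratios then pass only if many reach it together. The count fell to 0 without C2 or without M1 and rose to 17 without F3, which is not a measure of those mice.

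The S100a9 ratio that passed was that of the alveolar macrophage (AM), the resident phagocyte of the airspace. There S100a9 stood at 0.191 times S100a8, below NG cells in 8 of 8 mice (log2 difference -3.04, adjusted p = 0.0391, exact sign-flip test), and Retnlg at 0.0419 times against 0.233 in NG cells (log2 difference -2.48, adjusted p = 0.0391, exact sign-flip test). S100a8 was found in 29.2% of 418 macrophages (interval 24.9 to 33.8%, median depth 5559 UMIs) and S100a9 in 46 of them (interval 8.17 to 14.4%). After rounding and thinning to 2000 UMIs the shares were 11.03% for S100a8 and 2.05% for S100a9, against 1.38% and 1.97% in EC_capillary_B cells. The median value where found was 0.894 and 0.587 in macrophages and 0.839 and 0.761 in EC_capillary_B cells. Rounding can therefore weigh unequally on the genes and types compared here, and its part was not tested. By mouse, with 30 to 108 macrophages each, the S100a8 share at that depth was 0% to 16.7% in macrophages and 0.257% to 3.46% in EC_capillary_B cells, higher in macrophages in 7 of 8 mice (mean difference 9.13 points, p = 0.0156, exact sign-flip test, a comparison added after the values were seen). In M3 it was 0 of 52 macrophages, which allows a share of up to 5.77%. The S100a9 share was 0% to 5.56% and 0.771% to 4.69%, higher in macrophages in 4 of 8 mice (p = 0.773, exact sign-flip test). No macrophage was among the 32 cells rich in alarmins. Without those cells the S100a9 ratio in B cells passed as well (log2 difference -0.57, adjusted p = 0.0365, exact sign-flip test). B cells held 0 of the 32, so their values were unchanged and only the set of tests adjusted together became smaller.

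S100a8 in alveolar macrophages was at 0.656, 0.864, 0.987 and 0.763 in the CS mice and at 0.988, 0.456, 0.137 and 0.220 in the RA mice. The CS mice lay close together and the RA mice spread, with F1 at the level of the CS mice. The log2 difference of 0.36 (SE 0.148) had an adjusted p of 0.416 (limma), and 0.123 without F1. Over all alternative runs this difference ranged from 0.23 to 0.97. S100a9 in these cells had a log2 difference of -0.06 (SE 0.069, adjusted p = 0.846, limma).

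The ratio of Lcn2 to S100a8 lay on average above that of NG cells in all 9 types. It was 0.0525 in NG cells, 1.19 in EC_capillary_B cells and 4.83 in ciliated cells, and both passed (log2 differences 4.51 and 6.52, higher in 8 of 8 mice, adjusted p = 0.0391, exact sign-flip test). In AT2 cells the ratio was 240.0 (7 mice) and in club cells 136 (6 mice). Their adjusted p was 0.0502 and 0.0562 (exact sign-flip test), at the smallest p that so few mice allow. Without the cells rich in alarmins, and with fewer tests adjusted together, Lcn2 passed in every type then tested (adjusted p 0.0304 to 0.0437, exact sign-flip tests). Those cells were picked by S100a8 and S100a9, and S100a8 is the denominator here, so taking them out can by itself raise a ratio. In AT2 cells, where 3 such cells held 71.5% of the S100a8 transcripts, the ratio went from 240.0 to 438. The added passes are therefore no separate support.

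The ratio of Retnlg to S100a8 did not pass in EC_capillary_B and B cells, and was higher on average in ciliated, AT2 and club cells. It was 0.233 in NG cells and 0.307 in EC_capillary_B cells (log2 difference 0.40, range -1.51 to 2.01). In B cells it was 0.276 (log2 difference 0.13, range -1.24 to 1.48). With such ranges, these values cannot show whether the NG ratio was kept. In ciliated cells it was 0.530, above NG in 8 of 8 mice (log2 difference 1.19, adjusted p = 0.0391, exact sign-flip test), in AT2 cells 0.654, above NG in 6 of 7 mice (log2 difference 1.38, adjusted p = 0.0562, exact sign-flip test), and in club cells 7.72, above NG in 6 of 6 mice (log2 difference 4.97, adjusted p = 0.0562, exact sign-flip test). Without the cells rich in alarmins, Retnlg passed also in AT2 cells, above NG in 7 of 7 mice (adjusted p = 0.0365, exact sign-flip test). The 3 AT2 cells taken out had held 71.5% of the S100a8 transcripts, the denominator, and the ratio went to 0.838. The choice of those cells can by itself raise it. Retnlg then passed in club cells too (adjusted p = 0.0437, exact sign-flip test). Club cells held 0 of the cells taken out, so there only the set of tests adjusted together changed. Retnlg was found in 16.8% of club cells, but in 1.31% once values were rounded and cells thinned to 2000 UMIs, club cells having a median of 32,786 UMIs. Club cells held 9.32 ± 5.50 and goblet cells 13.5 ± 15.6 transcripts per 10,000 of Retnla, a close paralog of Retnlg, named here after its values were seen, and reads that the 2 genes could share were not tested. Retnla in goblet cells was at 12.2, 49.2, 15.4 and 17.2 in the CS mice and at 5.76, 3.78, 3.45 and 1.04 in the RA mice. All CS mice lay above all RA mice, as for 7.24% of the genes tested in goblet cells, and Retnla passed the test (log2 difference 2.35, SE 0.418, adjusted p = 0.0393, limma, against 0.177% of genes). In club cells Retnlg had a log2 difference of -0.02 between CS and RA (SE 0.0490, adjusted p = 0.890, limma), and in goblet cells 0.01 (SE 0.0454, adjusted p = 0.956, limma).

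Ngp and Camp were at most 0.0264 and 0.0321 per 10,000 in any type outside NG. They were found in 0.300% and 0.541% of cells outside NG, and in 0.0993% and 0.143% after thinning. Their ratios to S100a8 lay above the NG ratio in EC_capillary_B and ciliated cells (log2 differences 4.11 and 4.25 for Ngp, 5.67 and 6.82 for Camp, adjusted p = 0.0391, exact sign-flip test, 8 of 8 mice each). A count of 0.5 was added to each sum. Where few S100a8 transcripts were counted, it can alone lift a ratio above that of NG cells. Camp was at 0 in EC_capillary_B cells of M3 and Ngp at 0 in ciliated cells of D5. Both still counted among the 8 of 8 mice above NG. In NG cells of C2, Camp was itself at 0. These tests therefore cannot decide whether Ngp and Camp differ from the NG ratio. None of the other 7 types passed for either gene, but several could not, with an adjusted p of 0.0502 or 0.0562 at the smallest p that 6 or 7 mice allow. Without the 32 cells rich in alarmins, Ngp passed also in club, AT2, B and EC_capillary_A cells. Camp then passed also in AM, AT2, B and EC_capillary_A cells (both genes adjusted p 0.0365 to 0.0437, exact sign-flip tests). Club, B and AM cells held 0 of the 32, so there only the set of tests adjusted together became smaller. In AT2 and EC_capillary_A cells, taking out cells picked in part by the denominator S100a8 can by itself raise the ratio. Ngp was at 0 in club cells of 7 of 8 mice, so the added count largely set that ratio.

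**Figure D4:**
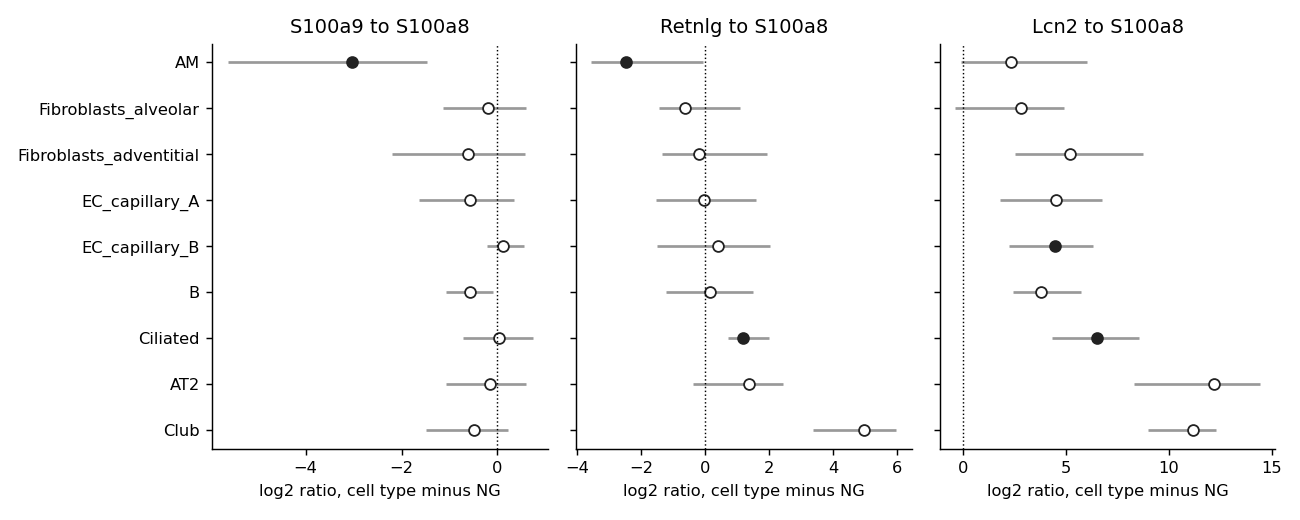
Points give the mean over mice of the log2 ratio of S100a9, Retnlg or Lcn2 to S100a8 in a cell type minus that in NG cells, with the range over 6 to 8 mice as a bar, filled where the adjusted p was under 0.05. Alveolar macrophages (AM) lie left of 0 for S100a9 (-3.04) and Retnlg (-2.48), and all types lie right of 0 for Lcn2.

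To compare smoke and room air outside NG, each gene was averaged over 16 other types that had at least 20 cells in every mouse, with equal weight. S100a8 was at 0.0921, 0.0885, 0.123 and 0.151 in the CS mice and at 0.632, 0.136, 0.121 and 0.0270 in the RA mice. S100a9 was at 0.0506, 0.0676, 0.0778 and 0.137 in the CS mice and at 0.733, 0.199, 0.207 and 0.0302 in the RA mice. F1 was highest for both and M3 lowest, and the groups overlapped, with log2 differences of -0.12 (p = 0.714) and -0.23 (p = 0.143, exact permutation tests). Without F1 these were 0.026 (p = 0.657) and -0.077 (p = 0.286), and without M3 the S100a9 difference was -0.33 (p = 0.0286, exact permutation tests). Adding 1 compresses differences at such low levels. The CS mean was 0.496 times the RA mean for S100a8 and 0.285 times for S100a9. Without F1 the RA means were 0.0948 and 0.145, against CS means of 0.114 and 0.0832.

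Retnlg outside NG was at 0.442 in F1 and between 0.00554 and 0.0349 in the other 7 mice, and F1 was the highest mouse in 15 of 16 types. Its log2 difference was -0.12 (p = 0.657, exact permutation test) and 0.0022 without F1. Lcn2 was at 1.41, 1.89, 1.78 and 2.96 in the CS mice and 4.90, 1.93, 1.52 and 1.51 in the RA mice (log2 difference -0.13, p = 0.743, exact permutation test, and 0.16 without F1). Ngp lay at or below 0.0210 and Camp at or below 0.0258 in every mouse, with p = 0.0857 and 0.286 (exact permutation tests), and p = 0.0286 for Ngp without M3. Without the 32 cells rich in alarmins, S100a8 in F1 fell to 0.271 and S100a9 to 0.168, and Retnlg to 0.142.

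**Figure D5:**
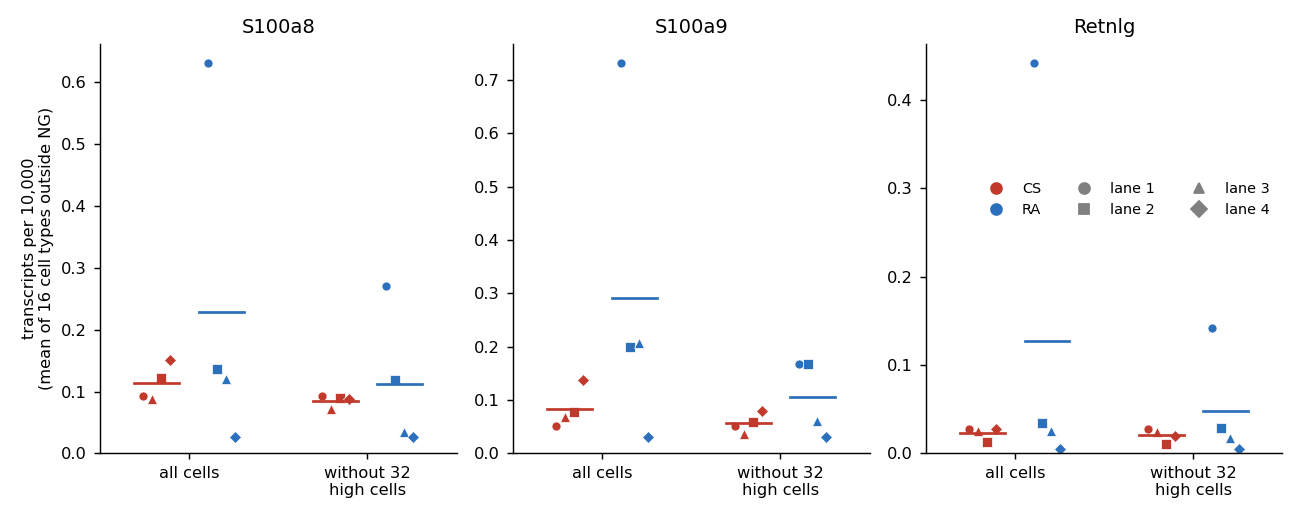
Transcripts per 10,000, as a mean of 16 cell types outside NG, for S100a8, S100a9 and Retnlg, with all cells and without the 32 cells at 50 or more S100a8 and S100a9 per 10,000. Each point is 1 mouse (red CS, blue RA, lanes as symbols, lines at the group means), and F1 stands at 0.632 for S100a8, 0.733 for S100a9 and 0.442 for Retnlg with all cells.

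The supply from NG cells was taken as the gene's NG transcripts per 10,000 of a library's transcripts. For S100a8 it ran from 1.40 to 5.93 and was highest in F1. Over the 8 mice, the level outside NG followed the supply for Retnlg (Pearson r = 0.943, p = 0.0237, and Spearman rho = 0.762, p = 0.0368, permutation tests over all pairings), with adjusted p of 0.0940 and 0.221 over the 6 genes. Without F1 and C2, the mice farthest from the median supply, r was 0.389 (p = 0.432, permutation test), so the relation rested on those mice. For S100a8, r was 0.635 (p = 0.0889) and rho 0.262 (p = 0.536), and r was -0.167 without F1 and C2 (permutation tests). For S100a9, r was 0.733 (p = 0.0909) and rho 0.0952 (p = 0.840), with r at 0.0284 without the same mice. For Lcn2, r was 0.874 (p = 0.0858) and rho 0.262 (p = 0.536), and r was -0.43 without F1 and F3 (permutation tests). For Ngp and Camp, r was 0.726 (p = 0.0509) and 0.722 (p = 0.0940), rho 0.429 (p = 0.299) and 0.190 (p = 0.665), and r 0.697 and 0.123 without F3 and M3 (permutation tests).

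Across the 32 cell types, the 6 genes were compared by the correlation of log2 of their mean level plus 1, as a description over types that share libraries. S100a8 and S100a9 followed each other at r = 0.993, and Ngp and Camp at r = 0.999. NG cells lay far above all other types for every member but Lcn2. That 1 type therefore largely sets such values, which say little about the other types. Lcn2 stood apart, at 0.493 to 0.540 with the other 5 genes. The genes outside the 6 most like S100a8 were Retn (r = 0.986), Dhrs9 (0.978) and Plet1os (0.978), those most like S100a9 Dhrs9 (0.980), Slc32a1 (0.977) and Retn (0.974), and those most like Retnlg 9830107B12Rik, Slfn4 and Mrgpra2b (0.992, 0.992 and 0.991). Ngp was most like Mrgpra2b, Cstdc4 and Gm6105, and Camp most like Mrgpra2a, Gm13006 and Cstdc5, with r from 0.9995 to 0.9998, as hardly any type but NG held them. Among these genes, Slc32a1 and Gm6105 stood at only 0.0837 and 0.0276 per 10,000 in NG cells. Lcn2 was most like the unnamed genes Gm36670 (0.884), Gm42109 (0.808) and Gm37599 (0.801), all of them barely detected, at 0.00458, 0.00323 and 0.00222 per 10,000 in NG cells.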

How the data were processed

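Per the labels and the study's methods, the authors aligned reads of 10x 3′ libraries to GRCm38.p6 with STAR 2.7.3a (STARsolo), summed spliced and unspliced UMIs, removed shallow or mitochondria-rich cells, took out free RNA by SoupX and labelled each cell's type. The deposited matrix holds these corrected, unscaled values, which are estimated counts and not whole, so no count model was fitted. The percent of mitochondrial transcripts per cell was deposited by the authors as well. No cells were left out beyond the authors' multiplet and cell cycle labels, and doublets were not called again.

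Counts were scaled to 10,000 per cell and averaged per mouse and type, with levels given for mice with at least 5 cells of a type. Tests used limma 3.58.1 with a mean trend in R 4.3.3 and exact permutations and sign flips (numpy 2.4.6, scipy 1.17.1). The limma step was checked on simulated data with known changes. The members and lists were chosen with earlier results of these data known. Named genes were the 6 members, the up to 3 genes of each list highest in NG cells, and the 3 genes most alike over types. Any other gene was named after its values were seen. The CD45-positive types were AM, B, T, NG, Mast, M, NK_T_cytotoxic, pDC and the labelled dendritic and monocyte types. Mice within a group are separate animals. Of the listed genes, 3 were not analysed here.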

Additional observations from a re-analysis of the deposited data

Results flagged for a closer look

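Among 40 groups of 4 mice checked, 10 had 1 mouse farther from the rest than Dixon's 95% limit allows. A count of about 2 by chance would hold only for separate groups of normally spread values. These groups reuse the same mice and partly the same values, so the 10 flags are not separate events. In 7 of the 10 flagged groups the mouse was F1 (RA). Its values, with the range of the other 3 RA mice, were 55.5 transcripts per 10,000 for Lcn2 in NG cells (9.20 to 15.7), 4.90 for Lcn2 outside NG cells (1.51 to 1.93), 0.442 for Retnlg outside NG cells (0.00554 to 0.0349), 49.9 for Lcn2 in lymphatic endothelial cells (6.71 to 9.82), 4.74 for Lcn2 in classical monocytes (0.0235 to 0.313), 3.70 for S100a8 in classical monocytes (0.0218 to 0.407), and 46.3% for NG cells among CD45-positive types (11.8% to 15.9%). The other 3 concern granule genes. CS mouse C5 had 2.05 for Ngp (other CS mice 0.162 to 0.477) and 2.31 for Camp (0 to 0.177) in NG cells, where it held 1 of the 9 cells rich in Ngp. RA mouse F3 had 0.0210 for Ngp outside NG cells (0.00242 to 0.00554).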

How the results depend on the processing

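No member passed an adjusted p of 0.05 with limma in any type under any alternative run. Leaving out 1 mouse moved the NG log2 difference of S100a8 between 0.0076 (without C2) and 0.17, of S100a9 between -0.12 and 0.050, of Retnlg between -0.11 and 0.56, of Lcn2 between -1.08 and -0.26 and of Ngp between -2.10 and -1.20 (-2.10 without F1, p = 0.0286, exact permutation test). Over all alternatives Ngp in NG cells ran from -2.74 (summed counts) to 0 and Camp from -2.90 (pseudocount 0.1) to 0. The 0 is the median over cells (p = 1, exact permutation test), as under 5% of NG cells held either transcript. By that median Lcn2 was -0.81 (p = 0.714, exact permutation test). Outside NG, leaving out 1 mouse moved S100a8 between -0.20 and 0.026, S100a9 between -0.33 and -0.077, Lcn2 between -0.27 and 0.16, Ngp between -0.012 and -0.0029 and Retnlg between -0.17 and 0.0022. The positive values came without F1, and S100a9 and Ngp had p = 0.0286 without M3 (exact permutation test). Over all alternatives outside NG, S100a8 ran from -0.32 to 0.026, S100a9 from -0.81 to -0.065 and Retnlg from -0.52 to 0.0022. The limma difference of Retnlg ran from -0.070 to 0.027 in club and from -0.042 to 0.038 in goblet cells. With summed counts, Lcn2 in NG cells was -1.21 (p = 0.0286, exact permutation test), Retnlg in club cells 0.083 and S100a9 in goblet cells 0.16, against -0.17. NG cells as a share of NG cells and monocytes differed by -13.4 points (p = 0.0286, exact permutation test). Of 45 ratios to S100a8, 9 passed. Leaving out 1 mouse gave 0 to 17 (0 without C2 or without M1, 17 without F3). All 9 stood at the smallest p possible, which any mouse left out raises, so this count jumps between few and many. Leaving out the 32 cells rich in alarmins, chosen after seeing the data, gave 25 of 35, with fewer tests adjusted together. These cells were picked by S100a9 and by S100a8, the denominator, so leaving them out can by itself raise the ratios. Without the 2 mice farthest from the median supply, r was -0.17 for S100a8, -0.43 for Lcn2 and 0.389 for Retnlg. With supply as the NG share of cells, it was -0.11 for Ngp, -0.15 for Camp and 0.653 for Retnlg. Lane as a replicate block, in limma and as sign flips of 4 lane pairs (smallest p 0.125), changed no call, with Lcn2 in lymphatic cells at an adjusted p of 0.0945 and in NG cells at 0.326. The cause of these changes was not tested. Values of Ngp and Camp in NG cells rest on few cells, and 1 cell held 66.8% of the NG Lcn2 transcripts in M3 and 37.7% in M1.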
